A study of Mus musculus with 12 samples.

Results

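All Taconic livers were compared with all Jackson livers in a set of 12 mouse liver RNA libraries. The libraries came from C57BL/6 mice, 6 of them supplied by Taconic and 6 by Jackson, and every library of the series entered. Within each vendor, 3 libraries came from mice caged for 4 weeks with mice of their own vendor (TAC and JAX, here called housed apart). The other 3 came from mice caged for the same time with mice of the other vendor (CoTAC and CoJAX, here called cohoused). Vendor was tested with housing as a block, over the 12058 of 23909 genes that reached 1 RPKM in at least 3 libraries. RPKM counts the reads of a gene relative to its length and to the size of the library. The labels give neither the substrain nor the sex, age, cage or diet of the mice, and they do not say that each library came from a separate animal. The p-values therefore rest on the spread among these samples, and that spread may be technical. Vendor stands for the colony as a whole, so inherited differences, gut microbes and earlier diet and handling cannot be told apart in it.

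Commercial colonies of C57BL/6 mice have been bred apart for many generations and have gathered different mutations, some of which change the expression of single genes. The same colonies carry different gut bacteria. Cage mates exchange these bacteria by eating each other's droppings, whereas the inherited differences stay with each mouse. In the liver, bacterial products and bile acids reaching it through the portal vein act on nuclear receptors such as PPARα and CAR, which control genes of fatty acid oxidation and drug oxidation.

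The libraries held an estimated 1490000 to 3460000 reads in Taconic and 1420000 to 3530000 in Jackson, read from the steps between the lowest values, so a single read on 2000 nucleotides of transcript came to between 0.14 and 0.35 RPKM. Depth was not balanced between the vendors, with a median relative depth of 1.63 in Taconic and 1.04 in Jackson (JAX 1 set to 1). Transcripts near the top of the range were listed lower in deeper libraries: Alb, which encodes serum albumin, ranged from 511.5 to 1152 RPKM. The 746 genes with a mean above 25% of Alb had a median log2 difference of -0.27 between the vendors, or -0.06 with depth as a covariate, against 0.03 for the other genes. Of the genes that differed by vendor, 5 lay above that level and each was lower in Taconic. All 3 JAX libraries and TAC 1 stood apart along component 1 of a principal component analysis, at -49.8 to -25.3 against 3.4 to 44.5 for the others. Component 1 held 32.4% of the variance. The libraries that stood apart were also the shallowest, with a relative depth of 0.7581 to 1 against 1.0541 to 1.8788 in the others. The part of depth in this component was not tested. The libraries also held exact zeros for genes that the liver uses, such as Hmgcs1 of cholesterol synthesis in every library, so a gene at 0 is described below only as listed at 0. The hepatocyte markers summed to 3458 to 6566 RPKM in Taconic and 3529 to 6443 RPKM in Jackson.

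Vendor was associated with a difference in 214 genes (1.77% of those tested), of which 73 (0.605%) were higher and 141 (1.17%) lower in Taconic livers, at an adjusted p below 0.05 (limma-trend, Benjamini-Hochberg). An unadjusted p below 0.05 was reached by 3079 genes (25.5%). The median size of the 214 differences was 0.74 on the scale of log2(RPKM + 0.5), and 63 of them (25 higher, 38 lower) reached 1. The median over all tested genes was 0.00755. In 50 of the 214 genes (21 higher, 29 lower) the 6 Taconic libraries did not overlap the 6 Jackson libraries, a separation seen in 94 of all tested genes (0.78%; 47, or 0.39%, in each direction). All 214 kept their direction in the mice housed apart and in the cohoused mice fitted separately, and 192 had an unadjusted p below 0.05 in both housings, although the same libraries had selected them. An exact permutation of vendor within housing gave 0.005, the smallest p that 400 arrangements allow, for 171 of the 214, and for 4.29% of all tested genes. With depth as a covariate, all 214 kept their direction and 43 of them passed the threshold. After quantile normalization 183 of them passed, and 301 genes passed in all, with 145 higher and 156 lower in place of 73 and 141.

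**Figure D1:**
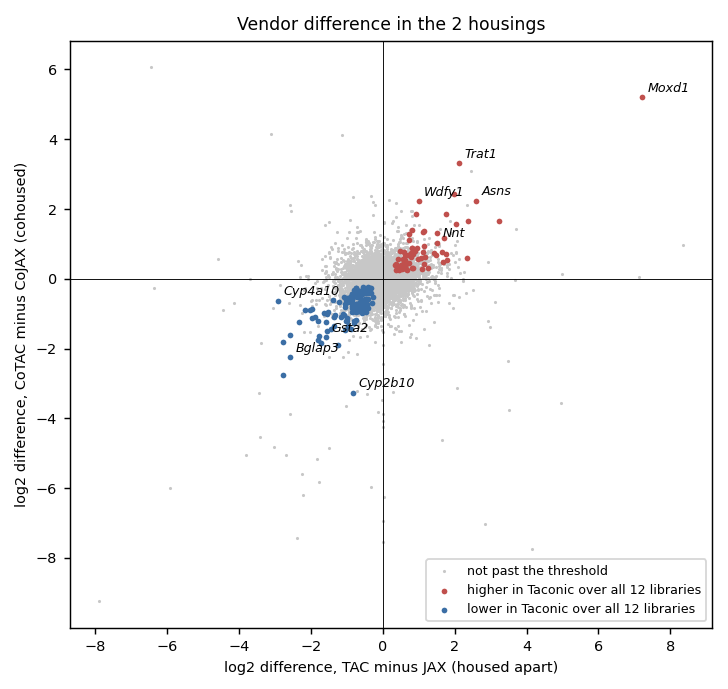
Each point is 1 of the 12058 genes, with the log2 difference between vendors in the mice housed apart (TAC minus JAX) on the x axis and in the cohoused mice (CoTAC minus CoJAX) on the y axis. Colours mark the 73 genes higher and the 141 lower in Taconic over all 12 libraries. The coloured points lie at the upper right and the lower left, and Moxd1 lies far out at 7.21 and 5.20.

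The number of calls depended on single libraries. Without any one of JAX 1, JAX 2, JAX 3, TAC 2, TAC 3, CoJAX 1, CoJAX 3, CoTAC 1 or CoTAC 3 it was 36 to 52, and it rose to 612 without TAC 1, 365 without CoJAX 2 and 677 without CoTAC 2. A set of 34 genes (0.282% of those tested; 12 higher, 22 lower) passed the threshold in each of the 12 fits that left out 1 library. Of these, 31 also passed with depth as a covariate (Cldn7, Hamp2 and Akip1 did not) and 34 after quantile normalization. These 34 were picked out after their values were seen, and the other 31 called genes that are named lost the call in at least 1 such fit. Of the 214 genes, 21 (6 of the 34) had fewer than 3 libraries at 1 RPKM in the vendor where they were lower, and so passed the filter on low values only through the vendor where they were higher. Among the named genes these are Moxd1, Zfp791, Plcd3, Trat1, Bglap3, Cldn7, Cd79a, Abcd2 and Cyp46a1. Their levels, and fitted differences where printed, are given as a description without p-values. They stay in the counts of called genes and list members. For them a call and a lack of overlap are partly set by the filter.

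**Figure D2:**
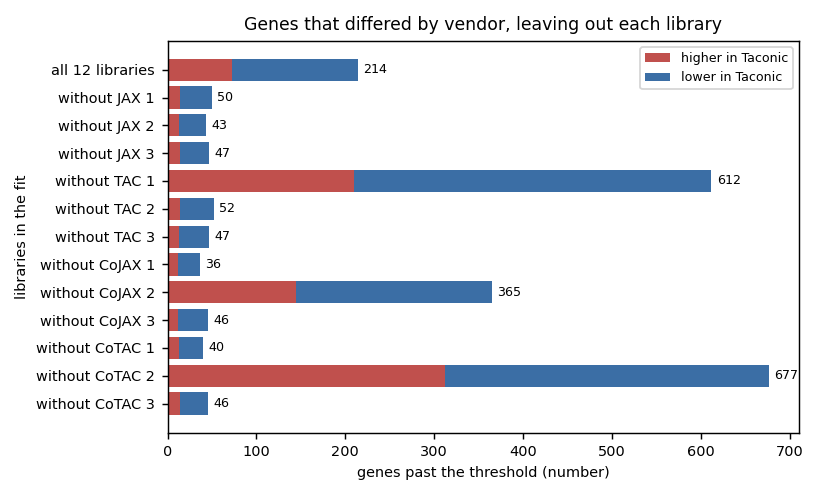
Bars give the number of genes past an adjusted p of 0.05 for Taconic against Jackson with all 12 libraries (214) and with each library left out in turn, split into genes higher and lower in Taconic. The bars without TAC 1, CoJAX 2 and CoTAC 2 reach 612, 365 and 677, and the other 9 lie between 36 and 52.

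Transcripts that were higher in Taconic livers in all 12 of those fits encode enzymes, receptors and signalling proteins of unrelated kinds. Moxd1, which encodes a monooxygenase related to dopamine beta-hydroxylase, had the largest difference of the 34. Its level was 49.1, 93.5, 128, 150, 163 and 164 RPKM in the Taconic libraries. In Jackson it was listed at 0, 0.201 and 0.423 RPKM in the mice housed apart and at 0.342, 1.33 and 29.8 RPKM in their cohoused counterparts, the last being CoJAX 2. No Jackson library reached the lowest Taconic library. The fitted log2 difference was 6.20 ± 0.72 (SE).

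Capn8, a calpain protease best known from the stomach lining, was listed at 8.09, 14.7 and 16.4 RPKM (lowest, median and highest of 6 libraries) in Taconic and at 1.35, 3.05 and 6.98 RPKM in Jackson. The groups did not overlap, and the log2 difference was 2.01 ± 0.22 (adjusted p = 0.00185). Plcd3, a phospholipase C that cleaves membrane phosphoinositides, averaged 4.73 ± 1.84 RPKM (SD, n = 6) in Taconic and 0.623 ± 0.44 RPKM in Jackson, a log2 difference of 2.20 ± 0.29. Camk2b, a subunit of calcium/calmodulin-dependent kinase II, averaged 12.5 ± 3.07 and 3.38 ± 1.52 RPKM, 3.71 times as much in Taconic (adjusted p = 0.00344). Camk2b values were again separate between vendors, as were those of Plcd3, which passed the filter only through Taconic. Mid1, a ubiquitin ligase bound to microtubules, averaged 10.1 ± 2.89 and 3.52 ± 1.12 RPKM without overlap (log2 1.40 ± 0.21, adjusted p = 0.00687). The zinc finger gene Zfp791 was listed between 2.86 and 9.04 RPKM in Taconic and between 0 and 1.54 RPKM in Jackson, where 1 library stood at 0.

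Smaller differences in the same direction were found for 2 genes of signalling and adhesion. S1pr5, a receptor for sphingosine 1-phosphate, averaged 8.04 ± 2.49 RPKM in Taconic and 4.23 ± 1.4 RPKM in Jackson (log2 0.85 ± 0.13, adjusted p = 0.00687). Its 6 Taconic and 6 Jackson values overlapped, but not within a housing. The TAC libraries lay at 5.4 to 6.31 RPKM against 2.62 to 3.99 in JAX, and the CoTAC libraries at 9.21 to 10.9 RPKM against 4.45 to 6.01 in CoJAX. Cadm4, a cell adhesion molecule, averaged 30.8 ± 3.89 and 20.6 ± 2.46 RPKM without overlap (log2 0.57 ± 0.09, adjusted p = 0.00687).

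**Figure D3:**
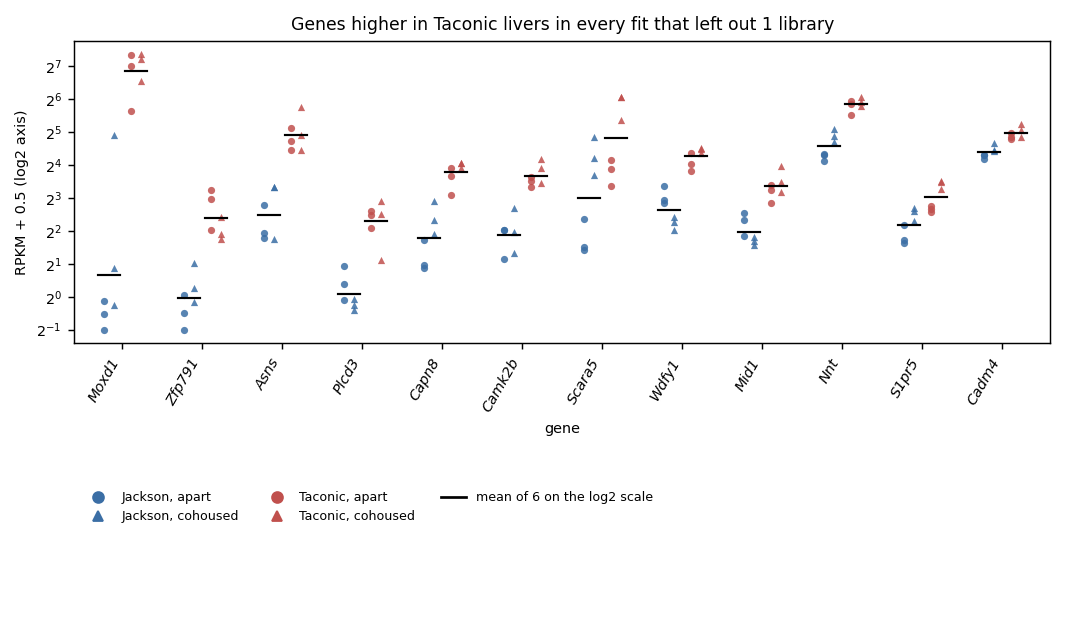
Points give RPKM + 0.5 (log2 axis) of the 12 genes higher in Taconic in every fit that left out 1 library, with circles for mice housed apart, triangles for cohoused mice and bars for the mean of 6 libraries on the log2 scale. The vendors are separate for every gene but Scara5 and S1pr5, and 1 cohoused Jackson library lies at 29.8 RPKM for Moxd1.

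Genes known from earlier work to differ between C57BL/6 substrains were looked at as a list of 10, of which 7 were tested. Among these 7, 2 were higher and 2 lower in Taconic, against 0.605% and 1.17% of all tested genes. Nnt, the mitochondrial transhydrogenase that makes NADPH and that is disrupted by a deletion in the C57BL/6J substrain, was listed at 45.1, 58.6 and 67.3 RPKM in Taconic and at 17, 22.7 and 33.9 RPKM in Jackson. The groups did not overlap, and the log2 difference of 1.28 ± 0.12 had the lowest adjusted p of the genes named here (0.000873). A gene-level value does not show which exons were read, so it says nothing of the deletion itself. Fitted per housing, the Nnt difference was 1.51 ± 0.14 apart and 1.04 ± 0.13 cohoused.

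Wdfy1, an endosomal adaptor protein, averaged 19 ± 3.56 RPKM in Taconic and 6.1 ± 2.34 RPKM in Jackson (log2 1.62 ± 0.21, adjusted p = 0.00385). The TAC libraries lay at 13.5 to 20 RPKM against 6.78 to 9.89 in JAX, and the CoTAC libraries at 20.2 to 22.5 RPKM against 3.6 to 4.82 in CoJAX. Wdfy1 was the only gene past the threshold among the cohoused mice fitted alone (0.00829% of those tested). Ide, the insulin-degrading enzyme, was lower in Taconic, at 36.9 ± 1.62 against 59.6 ± 6.26 RPKM (log2 -0.68 ± 0.07, adjusted p = 0.00185). Neither gene's groups overlapped. Entpd4, a nucleotide-hydrolysing enzyme of the Golgi, averaged 28.1 ± 3.88 and 41.6 ± 6.97 RPKM (log2 -0.55 ± 0.10, adjusted p = 0.0259), but passed in only 6 of the 12 fits without 1 library (adjusted p up to 0.0627, without JAX 3). The neighbours of Ide in the genome, Fgfbp3 and Btaf1, did not pass. Fgfbp3 was listed at 0.283 to 1.12 RPKM in Taconic and at 0.939 to 3.54 RPKM in Jackson. It passed the filter on low values only through the Jackson libraries. Btaf1 had a log2 difference of 0.09 ± 0.12 (adjusted p = 0.673). The inflammasome gene Nlrp12 had a difference of -0.08 ± 0.16, and Crb1 and Zp2 were listed at 0 in every library.

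Asns encodes asparagine synthetase, which makes asparagine from aspartate and glutamine. It is a classical target of the amino acid response, in which the factor ATF4 binds a short element near the gene start when amino acids run short. Levels were 21.3, 28 and 53.7 RPKM in Taconic and 2.86, 4.86 and 9.61 RPKM in Jackson. The lowest Taconic library thus lay above the highest Jackson library, at a ratio of group means of 5.38. The log2 difference was 2.42 ± 0.31 (adjusted p = 0.00344), and it was 2.59 ± 0.29 apart and 2.24 ± 0.49 cohoused.

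Asns was the one gene past the threshold among 22 tested members of the amino acid response list, with 0 lower and a median log2 difference of 0.11 (0.605% of all tested genes were higher). Mthfd2, a mitochondrial folate enzyme, averaged 4.58 ± 1.24 RPKM in Taconic and 2.18 ± 1.05 RPKM in Jackson, a difference of 0.98 ± 0.24 that missed the threshold (adjusted p = 0.0543). The stress factor Ddit3 had a difference of -0.64 ± 0.15 (adjusted p = 0.0538), Trib3 of -0.53 ± 0.19 (adjusted p = 0.122) and Atf4 itself of -0.07 ± 0.10 (adjusted p = 0.712). Pck2, the mitochondrial form of PEP carboxykinase, is also known as an ATF4 target but lay on the other side. It averaged 1.96 ± 0.445 RPKM in Taconic and 4.23 ± 1.22 RPKM in Jackson without overlap (log2 -0.93 ± 0.17, adjusted p = 0.0301), and passed in 4 of the 12 fits without 1 library (adjusted p up to 0.0742, without CoJAX 1).

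The promoters of Asns and Pck2 are shown because both hold the core letters of the amino acid response element while their levels differed in opposite directions. The sequences are RefSeq, build GRCm38.p6, written 5′ to 3′ on the strand of the gene around its start. Capitals mark TGATGNAA on either strand. The match of Asns (chr6:7693160-7693459, minus strand) begins at -23 relative to the gene start, and that of Pck2 (chr14:55540016-55540315, plus strand) at -103 and lies on the opposite strand.
Asns: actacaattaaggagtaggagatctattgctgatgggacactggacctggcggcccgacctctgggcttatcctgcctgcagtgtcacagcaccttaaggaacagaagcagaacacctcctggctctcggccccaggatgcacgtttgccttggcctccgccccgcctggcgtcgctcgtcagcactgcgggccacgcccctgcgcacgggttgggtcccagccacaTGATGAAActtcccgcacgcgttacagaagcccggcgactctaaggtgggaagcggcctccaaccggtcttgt
Pck2: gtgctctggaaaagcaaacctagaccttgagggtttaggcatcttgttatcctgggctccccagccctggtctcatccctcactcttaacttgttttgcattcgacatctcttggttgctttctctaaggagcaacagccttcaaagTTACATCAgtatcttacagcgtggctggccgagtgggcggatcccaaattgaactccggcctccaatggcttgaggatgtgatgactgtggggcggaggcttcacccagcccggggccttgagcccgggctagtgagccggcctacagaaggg
The letters occurred in 204 of 9090 matched promoters of tested genes (2.24%), in 3 of 59 promoters of genes higher in Taconic (5.08%) and in 6 of 108 of genes lower in Taconic (5.56%). In the amino acid response list 5 of 18 promoters held them, those of Asns, Trib3, Chac1, Aars and Nupr1, of which Asns alone passed the test. A match of letters is a description and not a binding site.

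The 22 transcripts that were lower in Taconic in all 12 fits without 1 library included secreted matrix and mineral proteins, glutathione transferases and transporters. Bglap3, an osteocalcin-related gene with near-identical neighbours, was listed at 0 in 5 Taconic libraries and at 0.685 RPKM in CoTAC 1, against 1.51 to 3.61 RPKM in Jackson. Mgp, matrix Gla protein, an inhibitor of calcification, was listed at 1.48, 4.92 and 10.1 RPKM in Taconic and at 10.8, 17.1 and 23.3 RPKM in Jackson. The Mgp groups came close without overlapping, with a log2 difference of -1.71 ± 0.26 (adjusted p = 0.00687). Its neighbour in the genome Art4, an ADP-ribosyltransferase, was lower too, at 1.54 ± 0.652 against 3.6 ± 0.608 RPKM (log2 -1.05 ± 0.20, adjusted p = 0.0301), but passed in 3 of the 12 fits (adjusted p up to 0.0772, without JAX 3). The cartilage protein gene Lect1 averaged 3.49 ± 1.39 and 11.8 ± 7.15 RPKM, and it too did not overlap (log2 -1.49 ± 0.23, adjusted p = 0.00865).

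Genes of nucleotide, arginine and vitamin turnover were among the 22. Upp1, uridine phosphorylase, averaged 1.81 ± 1.42 RPKM in Taconic and 7.06 ± 3.43 RPKM in Jackson (log2 -1.77 ± 0.22, adjusted p = 0.00344). Ddah1, which breaks down the nitric oxide synthase inhibitor dimethylarginine, was listed at 16, 28.2 and 38.7 RPKM in Taconic and at 49.3, 59.3 and 65.3 RPKM in Jackson (log2 -1.16 ± 0.17, adjusted p = 0.00687). The Ddah1 groups were separate, whereas 1 or more Upp1 values crossed. Vnn3, a pantetheinase, averaged 47.2 ± 6.9 and 85.3 ± 22.9 RPKM (log2 -0.82 ± 0.11, adjusted p = 0.00555), and Hyi, a hydroxypyruvate isomerase, 124 ± 39.9 and 211 ± 65.1 RPKM (log2 -0.77 ± 0.12, adjusted p = 0.00687).

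Both monocarboxylate transporters Slc16a7 and Slc16a11 were lower, with log2 differences of -0.82 ± 0.12 (adjusted p = 0.00573) and -0.74 ± 0.12 (adjusted p = 0.0138). Slc16a7 averaged 17.4 ± 3.45 RPKM in Taconic and 30.9 ± 5.35 RPKM in Jackson without overlap, and Slc16a11 17.5 ± 3.93 and 29.8 ± 8.47 RPKM with overlap. Fitm1, which helps form lipid droplets, averaged 90.7 ± 30.1 and 191 ± 65.2 RPKM (log2 -1.06 ± 0.15, adjusted p = 0.00556). Within a housing the Fitm1 groups were separate, at 108 to 124 RPKM in TAC against 243 to 256 RPKM in JAX and at 53.3 to 95.4 RPKM in CoTAC against 99.1 to 153 RPKM in CoJAX. The actin-binding genes Gsn (gelsolin) and Tpm2 (a tropomyosin) had differences of -0.91 ± 0.13 and -1.44 ± 0.22 (adjusted p = 0.00631 and 0.00862). S100a13, a calcium-binding protein, Akip1, a partner of protein kinase A, and 1810011O10Rik, a gene with no role given here, had differences of -0.73 ± 0.10, -0.63 ± 0.10 and -1.04 ± 0.15 (adjusted p = 0.0055, 0.0116 and 0.00573).

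**Figure D4:**
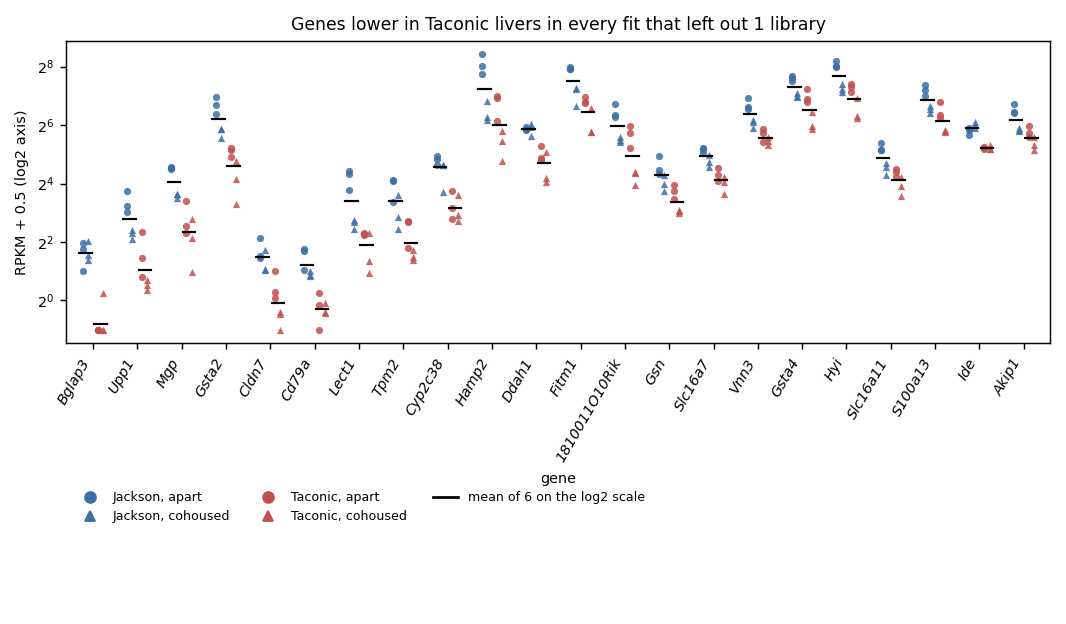
Points give RPKM + 0.5 (log2 axis) of the 22 genes lower in Taconic in every fit that left out 1 library, with circles for mice housed apart, triangles for cohoused mice and bars for the mean of 6 libraries on the log2 scale. Many genes fall from circles to triangles in both vendors, as Hamp2 does from 215 to 341 RPKM in JAX to 71.4 to 113 RPKM in CoJAX, and within each housing most Taconic points lie below the Jackson points.

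Iron handling held 1 higher and 1 lower gene among 21 tested members of its list, against 0.605% and 1.17% of all tested genes. Scara5, a receptor that takes up ferritin, was listed at 9.88, 29 and 66.9 RPKM in Taconic and at 2.19, 8.54 and 28.2 RPKM in Jackson. The vendors overlapped over all 12 libraries but not within a housing. The TAC libraries lay at 9.88 to 17.3 RPKM against 2.19 to 4.67 in JAX, and the CoTAC libraries at 40.8 to 66.9 RPKM against 12.4 to 28.2 in CoJAX. The log2 difference was 1.81 ± 0.24 (adjusted p = 0.00385). Hamp2, a second hepcidin gene, averaged 73.7 ± 41.5 RPKM in Taconic and 179 ± 109 RPKM in Jackson (log2 -1.24 ± 0.20, adjusted p = 0.0143, or 0.081 with depth as a covariate). Hamp, which encodes the iron hormone hepcidin and shares sequence with Hamp2, had a difference of -0.50 ± 0.19 (adjusted p = 0.133). At 125% of Alb, Hamp had a difference of -0.22 with depth as a covariate and of 0.01 after quantile normalization.

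Targets of PPARα, the receptor that turns on fatty acid oxidation in the liver, were represented by 36 tested genes, of which 0 were higher and 2 were lower, against 0.605% and 1.17% of all tested genes. The list's median log2 difference was -0.20, with 31 members negative, against 0.00755 for all tested genes. This median was -0.13 with 2 members passing with depth as a covariate. It was -0.06 with 5 passing after quantile normalization, where more of all tested genes passed too. Cyp4a10, an omega-hydroxylase of fatty acids whose reads can be shared with other Cyp4a genes, was listed at 9.89, 48.3 and 70.7 RPKM in Taconic and at 75.1, 129 and 147 RPKM in Jackson. The groups did not overlap (log2 -1.77 ± 0.38, adjusted p = 0.0429). Abcd2, a peroxisomal transporter of fatty acids, averaged 0.954 ± 0.785 and 4.65 ± 2.87 RPKM. It is counted among the 2 lower genes, but passed the filter on low values only through the Jackson libraries. Cyp4a14, with the larger mean difference of -2.67 ± 0.65, did not pass (adjusted p = 0.0553), and its value of 23.2 RPKM in CoJAX 2 lay among the Taconic values. In the separate limma-trend fits, Cyp4a14 differed by -4.46 ± 0.26 apart (adjusted p = 0.00186) and by -0.89 ± 0.76 cohoused (adjusted p = 0.609). Among the 13 genes called apart it had the smallest p. Cyp4a10 passed in 3 of the 12 fits without 1 library, with adjusted p up to 0.0969 without JAX 3.

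In the lipogenesis list 0 of 23 tested genes were higher and 1 lower, and in the lipoprotein list 1 of 21 was higher and 1 lower, against 0.605% and 1.17% of all tested genes. Cd36, a fatty acid receptor in none of the lists, averaged 8.1 ± 3.38 RPKM in Taconic and 19.4 ± 5.12 RPKM in Jackson (log2 -1.27 ± 0.24, adjusted p = 0.0301). Me1, malic enzyme, which supplies NADPH for fat synthesis, averaged 86.5 ± 9.62 and 130 ± 20.4 RPKM without overlap (log2 -0.58 ± 0.11, adjusted p = 0.0301) and was the lipogenesis gene that passed. Pltp, the phospholipid transfer protein, averaged 35.5 ± 11.3 and 113 ± 61.9 RPKM (log2 -1.45 ± 0.29, adjusted p = 0.032), while Abca1, the cholesterol exporter, was higher at 23.2 ± 3.91 against 16.8 ± 4.6 RPKM (log2 0.48 ± 0.10, adjusted p = 0.0394). Those were the lipoprotein genes that passed. Fitted per housing, Pltp differed by -2.02 ± 0.21 apart and -0.89 ± 0.41 cohoused. Leaving out 1 library ended the call of each of these 4 genes in 7 or more of 12 fits, with adjusted p up to 0.0758 for Cd36, 0.0742 for Me1 (both without CoJAX 1), 0.0824 for Pltp and 0.0885 for Abca1 (both without JAX 3). Cyp46a1, a cholesterol hydroxylase in none of the lists, averaged 0.67 ± 0.293 and 2.59 ± 1.14 RPKM.

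Glutathione and NRF2-controlled genes, which detoxify reactive compounds, held 0 higher and 5 lower of 33 tested members, against 0.605% and 1.17% of all tested genes, with a median of -0.35 (28 negative). The same median was -0.13 with depth as a covariate and -0.13 after quantile normalization. Gsta2, an alpha-class glutathione transferase, was listed at 9.42, 28.2 and 36.8 RPKM in Taconic and at 46.1, 70.1 and 123 RPKM in Jackson, and Gsta4, which clears the lipid peroxidation product hydroxynonenal, at 58.4, 97.8 and 149 RPKM against 125, 159 and 203 RPKM. The Gsta2 groups were separate and the Gsta4 groups overlapped, with log2 differences of -1.62 ± 0.20 (adjusted p = 0.00294) and -0.78 ± 0.11 (adjusted p = 0.00573). Genes of this family share reads with close copies. Nqo1, a quinone reductase, Gstm4 and Gstt1 had differences of -0.65 ± 0.13, -0.50 ± 0.11 and -0.53 ± 0.12 (adjusted p = 0.0313, 0.0473 and 0.0473). These 3 passed in 3 or 4 of the 12 fits (adjusted p up to 0.103), and Gstt1, at 45.4% of Alb, had a difference of -0.26 after quantile normalization. Mgst3, a membrane-bound relative outside the list, averaged 35.6 ± 13.2 and 94.9 ± 45.9 RPKM (log2 -1.28 ± 0.24, adjusted p = 0.0301, up to 0.0753 without CoJAX 1).

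Targets of CAR and PXR, the receptors that induce drug oxidases, held 0 higher and 3 lower of 20 tested genes, against 0.605% and 1.17% of all tested genes, with a median of -0.33 (-0.12 after quantile normalization). Cyp2c38, a drug and arachidonic acid oxidase with close Cyp2c relatives, averaged 8.77 ± 2.85 RPKM in Taconic and 24 ± 6.03 RPKM in Jackson (log2 -1.41 ± 0.21, adjusted p = 0.00687), and 1 Jackson library, CoJAX 2 at 12.7 RPKM, fell inside the Taconic range. Cyp2b10, the gene most used as a readout of CAR, averaged 1.35 ± 1.14 and 7.21 ± 4.71 RPKM (log2 -2.04 ± 0.43, adjusted p = 0.0412). Its difference was -0.83 ± 0.41 apart and -3.26 ± 0.32 cohoused, where the CoTAC libraries lay at 0.347 to 1.16 RPKM against 8.37 to 15.1 in CoJAX. Cyp2c54 averaged 148 ± 38.4 and 225 ± 39.7 RPKM (log2 -0.63 ± 0.13, adjusted p = 0.039). Cyp2b10 and Cyp2c54 each passed in 4 of the 12 fits (adjusted p up to 0.0897 without CoJAX 1 and 0.0905 without CoTAC 1). Cyp3a11, the classical PXR target, had a difference of -0.31 ± 0.15 (adjusted p = 0.209) that was 0.03 after quantile normalization.

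Conjugation, transport and carrier genes were split. Slco1a4, an uptake transporter of bile acids and drugs, averaged 13.5 ± 4.15 RPKM in Taconic and 29.3 ± 7.62 RPKM in Jackson without overlap (log2 -1.11 ± 0.22, adjusted p = 0.0313). It was the 1 lower gene of 25 in the bile acid list, with 0 higher, against 1.17% and 0.605% of all tested genes. Cyp7a1, which controls the rate of bile acid synthesis, ranged from 7.39 to 20 RPKM and from 9.1 to 63.3 RPKM and did not pass (log2 -0.87 ± 0.42, adjusted p = 0.209). The sulfotransferase Sult5a1 was higher, at 66.1 ± 26.6 against 33.9 ± 6.03 RPKM (log2 0.90 ± 0.20, adjusted p = 0.0454). Of 20 mitochondrial carriers, Slc25a30 was higher (log2 1.22 ± 0.23, adjusted p = 0.0301) and the dicarboxylate carrier Slc25a10 lower (log2 -0.37 ± 0.08, adjusted p = 0.039). That was 1 carrier in each direction, against 0.605% higher and 1.17% lower of all tested genes. Slc25a30 varied widely within each vendor, from 3.49 to 92 RPKM in Taconic and from 1.93 to 27.7 RPKM in Jackson, but the vendors were separate within a housing. It lay at 3.49 to 10.5 RPKM in TAC against 1.93 to 2.84 in JAX. The CoTAC libraries lay at 47.6 to 92 RPKM against 19.2 to 27.7 in CoJAX. All 4 called genes of this paragraph lost the call in 8 or 9 of the 12 fits, with adjusted p up to 0.1 (Sult5a1 without JAX 3).

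Several called genes belonged to none of the lists. Trat1, an adaptor of the T cell receptor complex, was listed at 0 in all 6 Jackson libraries and at 0.527, 0.552, 2.44, 2.76, 6.7 and 16.2 RPKM in Taconic. Extl1, a glycosyltransferase of heparan sulfate, averaged 4.7 ± 1.72 against 1.87 ± 0.594 RPKM, Tifa, an adaptor that responds to bacterial sugar nucleotides, 18.6 ± 7.71 against 9.19 ± 1.32 RPKM, and Col4a2, a basement membrane collagen, 11.2 ± 2.76 against 6.34 ± 1.47 RPKM. Dnaja4, a co-chaperone, averaged 9.47 ± 1.13 against 5.52 ± 1.57 RPKM. The vendors did not overlap in the last 4 of these genes, with adjusted p of 0.0313 to 0.0475. Cib3, a calcium- and integrin-binding protein, was lower, at 7.47 ± 4.54 against 39.3 ± 31.5 RPKM (log2 -2.30 ± 0.44, adjusted p = 0.0301), again without overlap. Extl1, Tifa, Col4a2, Dnaja4 and Cib3 each passed in 2 to 5 of the 12 fits without 1 library, with adjusted p up to 0.105 (Dnaja4 without TAC 3).

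**Figure D5:**
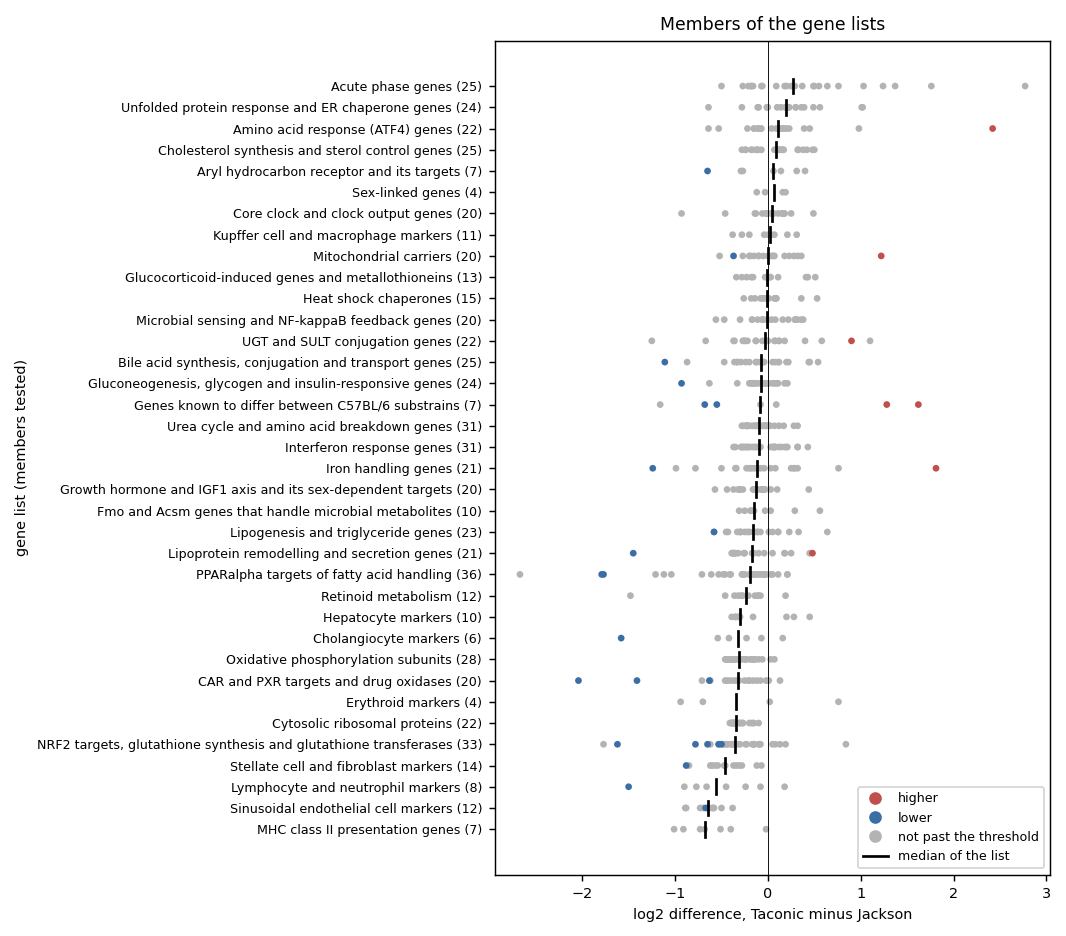
Each row is a gene list with at least 4 tested members (number in brackets), each point 1 member at its log2 difference (Taconic minus Jackson), and each black tick the median of the list. Red and blue points passed the threshold. Most lists hold 0 to 3 coloured points, and the medians run from -0.68 for MHC class II to 0.27 for acute phase genes.

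The 37 lists held 630 different tested genes, of which 7 (1.11%) were higher and 22 (3.49%) lower, against 0.605% and 1.17% of all tested genes. Acute phase genes, which the liver makes during inflammation, had a median of 0.27 over 25 members, and 0 passed in either direction. The acute phase median was 0.35 with 1 passing with depth as a covariate. It was 0.41 with 5 passing after quantile normalization, where more of all tested genes passed too. Lcn2, the iron-binding protein lipocalin 2, was listed at 62.1, 100 and 227 RPKM in TAC and at 19, 520 and 537 RPKM in CoTAC, against 13.4 to 27.4 RPKM over the Jackson libraries. One cohoused Taconic library, CoTAC 2, thus lay at the Jackson level, and the difference of 2.77 ± 0.68 did not pass (adjusted p = 0.0554). Unfolded protein response genes had a median of 0.20 over 24 members with 0 passing. Their median was 0.25 with 0 passing with depth as a covariate, and 0.31 with 2 passing after quantile normalization. Cytosolic ribosomal proteins and oxidative phosphorylation subunits had medians of -0.34 (0 of 22 positive) and -0.32 (2 of 28 positive) with 0 passing. Those medians were -0.01 and -0.06 after quantile normalization, and 20 of the 22 and 25 of the 28 genes lay above 25% of Alb.

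Markers of endothelial and stellate cells had negative vendor differences throughout, although few passed the threshold. Over all tested genes, 1.17% were lower and 0.605% higher, and the median log2 difference was 0.00755. In bulk liver, fewer cells of a type and less RNA per cell cannot be told apart. Of 12 sinusoidal endothelial markers all were negative, with a median of -0.64 and a summed level of 94.1 to 268 RPKM in Taconic against 222 to 398 RPKM in Jackson. Of these, 1 passed, the scavenger receptor Stab1 (6.12 ± 1.91 against 9.82 ± 2.12 RPKM, log2 -0.67 ± 0.15, adjusted p = 0.0473, up to 0.0969 without JAX 3), while Eng, a TGF-beta co-receptor, missed the threshold (log2 -0.63 ± 0.15, adjusted p = 0.0523). All 14 stellate cell and fibroblast markers were negative too, with a median of -0.46 and a summed level of 132 to 329 against 219 to 416 RPKM. Ecm1, a matrix protein, passed (74 ± 26.8 against 133 ± 35 RPKM, log2 -0.88 ± 0.16, adjusted p = 0.0301, up to 0.0742 without CoJAX 1). The 11 Kupffer cell and macrophage markers had a median of 0.02 and a summed level of 392 to 720 against 414 to 838 RPKM, with 0 past the threshold. With depth as a covariate the endothelial median was -0.79 and the stellate median -0.51, and after quantile normalization they were -0.67 and -0.49. The part of these cells in the matrix and actin-binding genes above was not tested.

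Among lymphocyte and neutrophil markers, 1 of 8 tested genes was lower (1.17% of all tested genes were). Cd79a, a chain of the B cell receptor, was listed at 0 to 0.705 RPKM in Taconic and at 1.3 to 2.89 RPKM in Jackson. Its partner Cd79b, listed at 0 to 1.46 RPKM in Taconic and at 0.614 to 3.73 RPKM in Jackson, did not pass. The 7 MHC class II presentation genes were all negative, with a median of -0.68 and 0 passing. The class II chain gene H2-Aa had a difference of -1.01 ± 0.26 (adjusted p = 0.0647). Of 6 cholangiocyte markers, the tight junction protein Cldn7 was lower, at 0 to 1.49 RPKM in Taconic and 1.57 to 3.9 RPKM in Jackson. Cd79a, Cd79b and Cldn7 passed the filter on low values only through the Jackson libraries. At these levels a value rests on few reads per library.

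When each housing was fitted alone, which gives comparisons that share no library, 13 genes (0.108%; 5 higher, 0.0415%, and 8 lower, 0.0663%) differed between TAC and JAX and 1 gene (0.00829%) between CoTAC and CoJAX. An unadjusted p below 0.05 was reached by 2613 and 1496 genes. Of these, 438 were shared. That is 16.8% of the first set, where 12.4% of all tested genes reached such a p in the cohoused mice, and 29.3% of the second, where 21.7% of all did in the mice housed apart. The 438 held 126 genes higher in both, 260 lower in both and 52 in opposite directions. Depth was unbalanced in both comparisons. Relative depth was 0.79 to 1.75 in TAC against 0.76 to 1 in JAX. It was 1.59 to 1.84 in CoTAC against 1.09 to 1.88 in CoJAX. The part of depth in the shared genes was not tested. Of the 13 genes called apart, 12 kept their direction in the cohoused mice, as 62.8% of all tested genes did, and 8 had an unadjusted p below 0.05 there, as 12.4% of all did. Moxd1 differed by 7.21 ± 0.44 apart and by 5.20 ± 1.18 cohoused.

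Whether the vendor difference depended on housing was tested by an interaction term, and 0 genes passed (limma-trend; 1358 genes, or 11.3%, at an unadjusted p below 0.05; 2 passed with depth as a covariate). The smallest p belonged to Rab30, a small GTPase of the Golgi, which averaged 5.6 ± 1.62 RPKM in TAC against 12.1 ± 0.779 in JAX and 19.1 ± 2.94 in CoTAC against 10.3 ± 1.75 in CoJAX (n = 3 each, adjusted p = 0.17 by limma-trend). Hspa1b, an inducible heat shock protein, took the opposite course, at 37.6 ± 12.1 RPKM in TAC against 14 ± 5.02 in JAX and 6.24 ± 0.722 in CoTAC against 15.9 ± 5.45 in CoJAX (n = 3 each, adjusted p = 0.205 by limma-trend). Averaged over housing, these genes had vendor differences of -0.11 ± 0.30 and 0.09 ± 0.43. Among the called genes, Cyp4a10 differed by -2.91 ± 0.34 apart and -0.63 ± 0.21 cohoused, and Cyp2b10 by -0.83 ± 0.41 and -3.26 ± 0.32, but neither interaction passed when adjusted over all genes.

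Control genes gave the following values. Ddx3y, on the Y chromosome, was present in every library at 15.5 to 31 RPKM and did not differ between vendors beyond its spread (log2 -0.03 ± 0.13, adjusted p = 0.906). Dbp, whose level swings over the day with the liver clock, ranged from 0.395 to 105 RPKM in Taconic and from 0.786 to 144 RPKM in Jackson, with a difference of -0.93 ± 1.49 (adjusted p = 0.722). Alb itself had a difference of -0.32 ± 0.18 (adjusted p = 0.278), and of 0.02 with depth as a covariate.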

How the data were processed

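Liver RNA was sequenced from 12 samples. Per the labels' protocols, poly(A) RNA was isolated on magnetic beads from TRIzol extracts and made into libraries with a ThruPLEX kit. RPKM values were deposited by the authors as 1 table, a column per library. The submitters' processing notes name Bowtie 1.0.0, Cuffdiff 2.1.1 and the build mm9, with no order or role. Nothing read here states the annotation or how strand and duplicate reads were handled, so antisense and overlapping genes cannot be told apart. Of 23936 lines, 27 carried a date number in place of a symbol (0.16% to 0.20% of a library's RPKM) and were left out.

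The deposited RPKM values were taken to log2(RPKM + 0.5) without other scaling, which understates fold changes of low genes. Genes that reached 1 RPKM in 3 or more libraries entered 1 limma-trend fit (limma 3.58.1, R 4.3.3) with vendor and housing as terms, two-sided, with Benjamini-Hochberg adjustment over the 12058 genes. Each housing was also fitted alone, and an interaction term came from a fit of 4 groups. Single genes had an exact permutation test of vendor within housing (400 arrangements, two-sided). No 2 libraries held identical values. Relative depth and read numbers were estimated from the steps of values below 0.6 RPKM and transcript lengths. On simulated data (12058 genes, 200 changed) the fit of Taconic against Jackson found 80% of the genes given a log2 change of 1. It found 97% of those given a change of 2. Of 189 calls 12 were false, and there were 0 calls without changes. These rates describe the simulated data only. Whether they hold for the real libraries, where depth was not balanced between the vendors, was not tested.

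The comparison, the 37 gene lists and the named genes were chosen with earlier results of these data known. The rule for names took the 15 largest differences in each direction among called genes whose groups did not overlap, up to 4 called members of a list (otherwise the 2 with the smallest p), the 5 smallest interaction p-values and a short fixed set. The text names a part of these and adds the genes that passed in every fit without 1 library and some list members, picked after their values were seen. Promoters of 9090 tested genes were matched by symbol. Alternatives changed the pseudocount, the filters, the scaling, the depth and housing terms, the variance model, the replicate block and the libraries.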

Additional observations from a re-analysis of the deposited data

Results flagged for a closer look

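Within each vendor's 6 libraries, the highest or lowest value was compared with the gap to its nearest neighbour, for the genes named in the text that entered the test. The gap exceeded Dixon's 95% limit as a share of the range in 15 of 176 groups. For 6 values from 1 normal distribution, chance flags about 1 in 20. The groups here pool both housings and hold raw RPKM values, so that rate may not hold. Among higher genes, Moxd1 stood at 29.8 RPKM in the Jackson library CoJAX 2 against 0 to 1.33 in the other Jackson libraries. Sult5a1 stood at 120 RPKM in TAC 1 (49.7 to 62.2 in the other Taconic libraries) and at 22.3 RPKM in CoJAX 1 (33.2 to 39.5 in the other Jackson libraries). Tifa stood at 33.5 RPKM in CoTAC 3 (12.5 to 18.7) and Col4a2 at 16.5 RPKM in CoTAC 1 (8.96 to 11).

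Among lower genes, Bglap3 stood at 0.685 RPKM in CoTAC 1, with the other 5 Taconic libraries listed at 0. Cyp2c38 stood at 12.7 RPKM in CoJAX 2 (24.2 to 30 in the other Jackson libraries), Pck2 at 6.67 RPKM in JAX 3 (3.53 to 4.19) and Cib3 at 101 RPKM in JAX 3 (15.5 to 36.9). Abcd2 stood at 2.47 RPKM in TAC 3 (0.327 to 1.03 in the other Taconic libraries), Cyp46a1 at 1.22 RPKM in TAC 1 (0.394 to 0.688) and Art4 at 2.76 RPKM in CoTAC 2 (0.933 to 1.61). Btaf1, which did not differ by vendor beyond its spread, stood at 7.87 RPKM in CoTAC 1 (5.11 to 6.13). Trib3, which did not pass either, stood at 14.1 RPKM in JAX 2 (18.5 to 20.5 in the other Jackson libraries). Chac1 of the same list, which did not pass for vendor (log2 0.39, adjusted p = 0.514), stood at 24.3 RPKM in CoJAX 2 (5.52 to 10.1 in the other Jackson libraries). Causes were not tested.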

How the results depend on the processing

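The count of genes past the threshold for Taconic against Jackson moved from 214 to 54 with no filter on low values, 51 with depth as a covariate, 14 with no housing term, 418 as the average from a fit of 4 groups, 72 without the variance trend and 51 with quantile normalization and depth together, the last chosen after seeing the data. Leaving out each library gave 36 to 677. It stayed within 1.5 times of 214 with other pseudocounts, median-ratio or quantile scaling, stricter filters and robust estimation. For the mice housed apart (13) it was 21 with median-ratio scaling, 110 with quantile normalization, 7 with depth and 5 to 947 without 1 library, the highest without TAC 1. For the cohoused mice (1) it was 0 with depth and 0 to 67 without 1 library (67 without CoTAC 2). For the interaction (0) it was 2 with depth and 0 to 46 without 1 library (46 without TAC 1). List genes past the threshold (29) became 46 with quantile normalization and 18 with depth. No named gene that passed changed direction in any of these fits, and the causes of the moves were not tested.

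Libraries of different groups share replicate numbers. With the replicate block 51 genes passed in the main comparison, 16 apart, 0 cohoused and 0 for the interaction. The numbers did not pair the libraries: correlations of same-numbered deviations were -0.174 to 0.151 over 18 pairs, 1 of them over 0.1, and 1 of 12 libraries correlated best with its own number. At 0.14 to 0.35 RPKM per read, values below about 1 RPKM rest on few reads.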

Other observations

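Called genes that lie close together were counted in RefSeq gene order. Of 214 called genes 198 were placed, and 10 pairs had at most 4 genes between them, 7 of these pairs with the same direction. How many such pairs genes drawn at random would give was not worked out, so the count does not show clustering. With 141 of the 214 called genes lower in Taconic, many pairs would share a direction anyway. Art4 and Mgp were adjacent, as were Haus7 and the proteoglycan gene Bgn (log2 -0.58 each). Pck2 and Fitm1 had 1 gene between them, and Cib3 and the shear-responsive factor gene Klf2 (log2 -0.86) had 2. Haus7, Bgn and Klf2 passed for vendor in 6, 4 and 4 of the 12 fits without 1 library, with adjusted p up to 0.111 (Bgn without CoJAX 1).

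Some libraries stood apart in certain transcripts, whose source was not tested. JAX 2 held the muscle transcripts Ckm at 20.1 RPKM and Acta1 at 36.7 RPKM. CoJAX 1 and CoJAX 2 had medians of 320 and 336 RPKM over 47 small nucleolar RNA genes, against 0 in every other library. Without JAX 2, 43 genes passed for vendor.

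Other promoter letters were searched on both strands. The antioxidant response core TGACNNNGC was in 14.9% of the 9090 promoters, 15.3% of those of higher genes and 15.7% of those of lower genes. The E box CACGTG was in 10.4%, 13.6% and 13% of the same sets, and the D box TTATGNAA in 2.15%, 1.69% and 4.63%.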
